A study of Danio rerio with 23 samples.

Results

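The zebrafish genes msx1a (ENSDARG00000116118) and msx1b (ENSDARG00000008886) are 2 of the 31743 genes counted in whole gastrula embryos. They were taken by name, and they were chosen because their levels fell in embryos that overexpress dkk1b at the early stage and for their response to wnt8a. Their early change with dkk1b and their changes with wnt8a are therefore given as a description, without a test. Their later change with dkk1b was tested, but it too was known when the genes were chosen. Msx proteins are homeobox transcription factors that mostly act as repressors. In vertebrate gastrulae their genes are transcribed on the ventral and lateral side, in the non-neural ectoderm and at the border of the neural plate, where BMP and Wnt signals meet, and they take part in setting up neural crest and dorsal neural tube. Wnt ligands act through Frizzled and Lrp receptors to stabilise beta-catenin, which works with Tcf and Lef factors on target genes, whereas Dkk1 is a secreted antagonist that binds the Lrp co-receptor.

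RNA was sequenced from 23 libraries in 8 groups. Embryos carrying hs:dkk1b/+, a dkk1b transgene under a heat-inducible promoter, were compared with genotypically wild-type siblings from the same crosses to wild-type fish, and embryos carrying hs:wnt8a/+ with theirs. Siblings were heat-shocked too, so no group is free of heat. The dkk1b crosses were held at 37 °C for 60 min and the wnt8a crosses at 39 °C for 30 min, in tubes of 10 embryos, before recovery at 29 °C. The titles name times of 5.5 and 7.5 h post fertilisation (hpf), which are used here, while a separate field has 5 and 7 hpf, and whether either is the time of heat shock or of collection is not stated. Transgenic embryos were picked by fluorescence, and embryos of several mating pairs were pooled. Each group had 3 libraries, except hs:wnt8a/+ at 5.5 hpf with 2. Nothing in the labels ties a library to its own clutch, so the p-values measure the spread between libraries, which may be technical.

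Library totals lay between 13845788 and 20467185 counts, with a median of 16829144. Every library labelled transgenic held more of its transgene RNA than any library labelled as a sibling of its cross. Counts scaled to library size (CPM) for dkk1b were 2292 to 3952 in hs:dkk1b/+ embryos at 5.5 hpf and 2329 to 19060 at 7.5 hpf, against 17.3 to 55.2 in siblings at 5.5 hpf and 18.4 to 54.0 at 7.5 hpf. For wnt8a_1, the listed wnt8a gene, they were 2664 to 3447 in hs:wnt8a/+ embryos at 5.5 hpf and 3092 to 4218 at 7.5 hpf, against 391.7 to 721.5 in siblings at 5.5 hpf and 2.33 to 179.7 at 7.5 hpf. In the dkk1b cross wnt8a_1 stood at 3.14 to 9.57 CPM. The libraries labelled as wild-type siblings of the wnt8a cross held more than that in all 3 replicates at 5.5 hpf. At 7.5 hpf replicates 1 (179.7 CPM) and 3 (14.8 CPM) did, the latter by a small margin. Taken alone, such an excess goes against a wild-type label. Line, heat regime and any batch also differ between the crosses and cannot be told apart from it. The part of this wnt8a_1 RNA in the comparisons with these libraries was not tested. Marker genes of the margin, ectoderm, endoderm, enveloping layer, yolk and germ line were all detected in every group, as whole embryos would give. Replicate 2 of the dkk1b cross at 5.5 hpf stood apart in both genotypes. Its germ cell markers summed to 311.7 CPM in the hs:dkk1b/+ library and 302.8 in the sibling library, against 122 to 137.8 in the other 4 libraries of that cross and time. Its non-neural ectoderm markers summed to 385 CPM in the hs:dkk1b/+ library, where the other 2 had 663.7 and 665.7, and to 288.9 CPM in the sibling library, where the other 2 had 500.8 and 533.1. The main values that rest on this sibling library are given with and without it.

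At 5.5 hpf msx1b stood at 20.5% and msx1a at 29.7% of the sibling level in hs:dkk1b/+ embryos. The msx1b level was 9.50, 12.5 and 11.6 CPM in the 3 hs:dkk1b/+ libraries, against 72.6, 27.6 and 63.8 CPM in the sibling libraries. All hs:dkk1b/+ libraries lay below all sibling libraries, and the sibling library of replicate 2 was the lowest of its group. For msx1a the values were 4.63, 2.96 and 4.74 CPM in hs:dkk1b/+ embryos and 19.2, 5.63 and 16.7 CPM in siblings. The groups again did not overlap, and replicate 2 was the lowest library in both genotypes. Within same-numbered pairs the hs:dkk1b/+ library held 13.1%, 45.3% and 18.2% of the sibling msx1b level and 24.1%, 52.5% and 28.4% of the sibling msx1a level. The log2 fold change was -2.29 ± 0.28 (SE) for msx1b and -1.75 ± 0.33 (SE) for msx1a, and without the low sibling library it was -2.60 and -2.12. Among 13129 genes with a mean log2 CPM of at least 1, 2 genes had a larger fall than msx1b and 10 a larger fall than msx1a. In this comparison 0.0513% of the 19504 genes tested passed, 0.0461% were called lower and 2.34% had non-overlapping groups in that direction. Nothing is read from these shares for genes chosen on this fall. In whole embryos, fewer cells that express a gene and less RNA in each cell cannot be told apart.

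**Figure D1:**
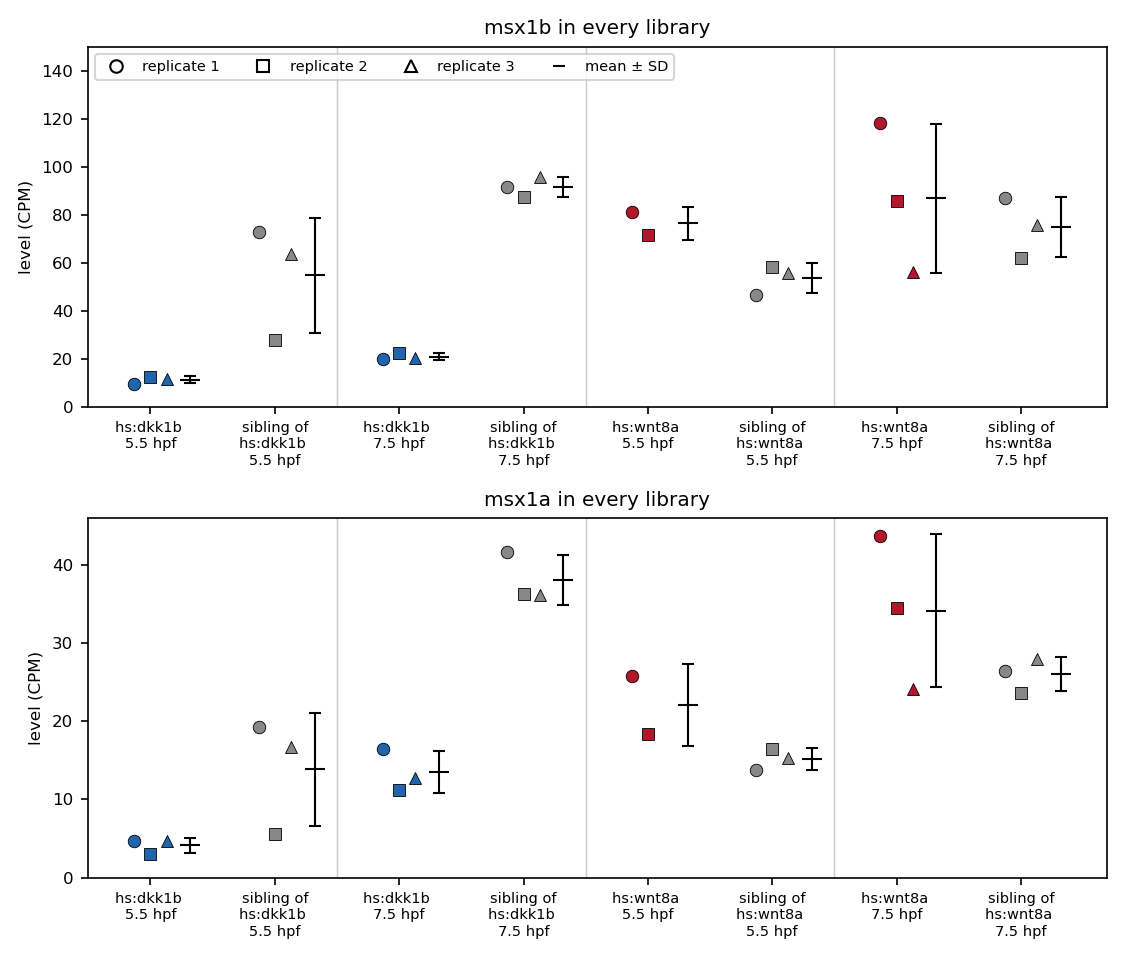
Levels of msx1b (top) and msx1a (bottom) in CPM on linear axes in each of the 23 libraries, with hs:dkk1b/+ in blue, hs:wnt8a/+ in red and siblings in grey. The marker shape gives the replicate number and the dash with its bar gives the mean ± SD of the group. The hs:dkk1b/+ libraries lie at 22.4 CPM or less for msx1b, and the sibling library of replicate 2 at 5.5 hpf lies at 27.6 CPM.

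At 7.5 hpf msx1b was again lower in hs:dkk1b/+ embryos. The level was 19.9, 22.4 and 20.4 CPM in hs:dkk1b/+ embryos, against 91.5, 87.2 and 95.7 CPM in siblings. The groups were far apart and each was tight, and the pairs held 21.7%, 25.6% and 21.3% of the sibling level. The log2 fold change of msx1b was -2.13 ± 0.28 (SE, adjusted p = 0.000495, edgeR quasi-likelihood test). For msx1a the values were 16.5, 11.2 and 12.7 CPM in hs:dkk1b/+ embryos and 41.7, 36.2 and 36.2 CPM in siblings. These groups did not overlap either, and every pair went the same way, at 39.5%, 31% and 35.2% of the sibling level. The log2 fold change of msx1a was -1.50 ± 0.31 (SE), which missed the threshold of 0.05 (adjusted p = 0.0581). With the replicate number as a block it was -1.51 ± 0.19 (SE) and passed (adjusted p = 0.00111), in a fit that called 0.59% of all genes lower and 0.159% higher. DESeq2, which called 0.303% of genes, also called both msx1a and msx1b lower. Of the 19504 genes tested, 0.154% passed in this comparison, 0.149% were called lower and 3.76% had groups that did not overlap in that direction, and 6 of the 13129 ranked genes had a larger fall than msx1b and 25 a larger fall than msx1a. These falls were already known when the genes were chosen, so they are no independent support for the early ones. For the same reason their p-values are not those of genes picked without sight of the result.

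The size of the fall at the 2 times is given as a description. The log2 fold change at 7.5 hpf minus that at 5.5 hpf was 0.16 ± 0.38 (SE) for msx1b and 0.25 ± 0.44 (SE) for msx1a. These values rest on single libraries: without the low sibling library of replicate 2 at 5.5 hpf they were 0.474 for msx1b and 0.627 for msx1a, and without that of replicate 1 they were -0.102 and -0.0541. In hs:dkk1b/+ embryos the level was still higher at 7.5 than at 5.5 hpf, by 0.90 ± 0.28 (SE) on the log2 scale for msx1b and 1.71 ± 0.33 (SE) for msx1a. The later hs:dkk1b/+ level of msx1a, 13.5 ± 2.71 CPM (SD, n = 3), was close to the earlier sibling level of 13.8 ± 7.22 CPM (SD, n = 3). This closeness rested on the low sibling library of replicate 2, at 5.63 CPM. The later hs:dkk1b/+ libraries, at 11.2 to 16.5 CPM, all lay below sibling replicates 1 and 3, at 19.2 and 16.7 CPM. The later hs:dkk1b/+ level of msx1b, 20.9 ± 1.32 CPM (SD, n = 3), lay below each of the earlier sibling libraries.

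Both replicate 1 libraries of the dkk1b cross at 7.5 hpf had far more hsp70l, a heat-inducible chaperone RNA, than the others, at 2654 CPM in the hs:dkk1b/+ library and 1228 CPM in the sibling library, against 40.7 to 78.0 CPM in the other 4. Without this pair the log2 fold change of msx1b was -2.10 (adjusted p = 0.0317) and that of msx1a was -1.60 (adjusted p = 0.471). None of the 9 heat-shock chaperone genes listed passed in any of the 4 comparisons of transgenic embryos with siblings by edgeR, none was at an unadjusted p under 0.05, and DESeq2 called 0. Precision was low: hsp70l stood at 1.09 ± 1.13 (log2 fold change ± SE) with dkk1b at 7.5 hpf, and was higher in the hs:dkk1b/+ library of every same-numbered pair. The 9 genes summed to 35100 to 35760 CPM in hs:wnt8a/+ embryos at 5.5 hpf and 19660 to 32190 CPM in siblings. In the other comparisons the sums overlapped. A part of heat in the msx levels was not tested.

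Summed markers of other regions of the embryo also differed beside the msx genes. The 3 margin markers tbxta, mixl1 and tbx16 summed to 158.8 to 210.1 CPM in hs:dkk1b/+ embryos at 7.5 hpf, against 326.3 to 450.8 CPM in siblings. Of the 3, 1, tbxta, passed, and tbx16 was at an unadjusted p under 0.05. The 4 non-neural ectoderm markers tfap2a, gata2a, foxi1 and tp63 summed to 818.1 to 837.7 CPM in hs:dkk1b/+ embryos and 641.6 to 707 CPM in siblings, with 0 of 4 called by edgeR and gata2a at an unadjusted p under 0.05. The 3 neural ectoderm markers sox2, sox3 and otx2b summed to 345.9 to 384.6 CPM in hs:dkk1b/+ embryos and 273.1 to 303.1 CPM in siblings, with 0 of 3 called by edgeR and sox2 at a log2 difference of 0.67 ± 0.17 (SE, adjusted p = 0.290). At 5.5 hpf the margin sum was 503.3, 1061 and 455.9 CPM in hs:dkk1b/+ embryos and 996, 1297 and 881 CPM in siblings. The groups overlapped only through the hs:dkk1b/+ library of replicate 2, and the hs:dkk1b/+ library was lower in each same-numbered pair. By edgeR 0 of the 3 passed at that time, with tbxta and tbx16 at an unadjusted p under 0.05. None of these markers was at 0 in any group of the dkk1b cross. Their part in the fall of msx1a and msx1b was not tested.

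With wnt8a the mean levels were higher than in libraries labelled as siblings at both times, by much less than they were lower with dkk1b. At 5.5 hpf msx1b was at 81.4 and 71.5 CPM in the 2 hs:wnt8a/+ libraries, against 46.6, 58.4 and 55.7 CPM in siblings. For msx1a the values were 25.8 and 18.3 CPM in hs:wnt8a/+ embryos and 13.8, 16.5 and 15.3 CPM in siblings. Both hs:wnt8a/+ libraries lay above all 3 sibling libraries for each gene, as was so for 12% of all genes tested. The log2 fold change was 0.51 ± 0.29 (SE; 95% interval -0.09 to 1.12) for msx1b and 0.54 ± 0.34 (SE; 95% interval -0.16 to 1.24) for msx1a. Of the ranked genes, 291 had a larger rise than msx1b and 245 a larger rise than msx1a. By edgeR 0% of genes passed here, while 649 had an unadjusted p under 0.05 and DESeq2 called 5, or 0.0257%.

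At 7.5 hpf the hs:wnt8a/+ libraries were spread widely. They held 118.5, 85.9 and 56.1 CPM of msx1b, against 87.1, 61.9 and 76.0 CPM in siblings. The same libraries held 43.7, 34.5 and 24.1 CPM of msx1a, against 26.4, 23.6 and 27.9 CPM in siblings. The groups overlapped for both genes, and in each the library of replicate 3 was below its same-numbered sibling library, at 73.9% for msx1b and 86.5% for msx1a, while replicates 1 and 2 were above theirs, at 136% and 139% for msx1b and 165% and 146% for msx1a. The log2 fold change was 0.21 ± 0.26 (SE; 95% interval -0.33 to 0.76) for msx1b and 0.39 ± 0.30 (SE; 95% interval -0.23 to 1.01) for msx1a. Both intervals run from below to above 0. Of the 3 libraries labelled as siblings in this comparison, replicate 1, with 179.7 CPM of wnt8a_1, had the highest msx1b. The highest msx1a was in replicate 3, with 14.8 CPM of wnt8a_1. At 5.5 hpf the sibling library with the least wnt8a_1, replicate 2 at 391.7 CPM, had the highest level of both genes. At 7.5 hpf, without the sibling library of replicate 1, the values were 0.333 for msx1b and 0.405 for msx1a. Without the hs:wnt8a/+ library of replicate 1, the highest for both genes, the value was -0.078 for msx1b and 0.174 for msx1a. In this comparison 0.0974% of genes passed and 0.00513% were called higher. Other regional markers did pass: of 3 neural ectoderm markers, sox2 was lower at -1.37 ± 0.17 (SE, adjusted p = 0.000728), and of 2 dorsal organizer markers, gsc was lower at -1.92 ± 0.28 (SE, adjusted p = 0.00279). The other organizer marker, chrd, went the other way at 0.43 ± 0.28 (SE) and did not pass. The neural ectoderm markers summed to 210.6 to 236.5 CPM in hs:wnt8a/+ embryos and 330.3 to 364.9 CPM in siblings, and the organizer markers to 428.4 to 869.4 CPM in hs:wnt8a/+ embryos and 333.4 to 717.9 CPM in siblings. Their part in the msx levels was not tested. The difference between the times in the effect of wnt8a was -0.30 ± 0.39 (SE) for msx1b and -0.15 ± 0.45 (SE) for msx1a. In the wnt8a cross the library with the lowest msx1b was also the one with the lowest msx1a in 4 of 4 groups, against 1 of 4 groups of the dkk1b cross. Groups held only 2 or 3 libraries and no share over other pairs of genes is given, so nothing is read from this.

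In siblings the msx1a level rose with stage. In the dkk1b cross msx1a was at 41.7, 36.2 and 36.2 CPM at 7.5 hpf, against 19.2, 5.63 and 16.7 CPM at 5.5 hpf, which is a log2 difference of 1.46 ± 0.31 (SE) at an adjusted p of 0.00160. In the wnt8a cross msx1a was at 26.4, 23.6 and 27.9 CPM at 7.5 hpf, against 13.8, 16.5 and 15.3 CPM at 5.5 hpf, which is a log2 difference of 0.78 ± 0.30 (SE) at an adjusted p of 0.0474. The times did not overlap in either cross, as was so for 24.2% of all genes in the dkk1b cross and 25.9% in the wnt8a cross in this direction. Without the low sibling library of replicate 2 the msx1a value in the dkk1b cross was 1.08 (adjusted p = 0.00421). The call in the wnt8a cross was lost whenever any 1 of its 6 libraries was left out (adjusted p of 0.0652 to 0.128). For msx1b the log2 fold change between the times was 0.74 ± 0.26 (SE, adjusted p = 0.0382) in the dkk1b cross and 0.48 ± 0.26 (SE, adjusted p = 0.150) in the wnt8a cross. The msx1b call in the dkk1b cross was lost without the low sibling library of replicate 2 (log2 fold change 0.423, adjusted p = 0.178), and also without any 1 of the 3 libraries of 7.5 hpf. Stage changes were common, since 15.6% of genes were called higher and 15.4% lower with stage in the dkk1b cross, and 21.8% higher and 18.4% lower in the wnt8a cross. The sibling libraries of 5.5 hpf in these comparisons also served the comparisons on which the genes were chosen. In the wnt8a cross those of 7.5 hpf did so too, so both sides of its stage change were used in the choice. Libraries labelled as siblings of the wnt8a cross held wnt8a_1 RNA, at 391.7 to 721.5 CPM at 5.5 hpf and 2.33 to 179.7 CPM at 7.5 hpf. Its part in their stage change was not tested.

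The stage change was not shown to differ between the crosses. Its difference, the wnt8a cross minus the dkk1b cross, was -0.68 ± 0.43 (SE, adjusted p = 0.635) for msx1a and -0.26 ± 0.37 (SE, adjusted p = 0.865) for msx1b, with 0% of all genes called by edgeR, 1929 at an unadjusted p under 0.05 and 68, or 0.404%, called by DESeq2. Without the low sibling library of the dkk1b cross these differences were -0.309 for msx1a (adjusted p = 0.691) and 0.0597 for msx1b (adjusted p = 0.949). Siblings of the wnt8a cross set directly against siblings of the dkk1b cross differed by 0.13 ± 0.31 (SE, adjusted p = 0.834) for msx1a and -0.03 ± 0.26 (SE, adjusted p = 0.965) for msx1b at 5.5 hpf on the log2 scale. At 7.5 hpf they differed by -0.55 ± 0.30 (SE, adjusted p = 0.370) for msx1a and -0.29 ± 0.26 (SE, adjusted p = 0.634) for msx1b. Without the same library the values at 5.5 hpf were -0.241 for msx1a and -0.349 for msx1b. At 7.5 hpf the crosses did not overlap for either gene, as was so for 11.7% of all genes in this direction, and at 5.5 hpf they overlapped for both. These 2 comparisons called 7.73% and 1.77% of all genes. The 9 chaperone genes summed to 19660 to 32190 CPM in siblings of the wnt8a cross at 5.5 hpf and 8469 to 10670 CPM in siblings of the dkk1b cross. Line, heat regime and any batch cannot be told apart in these comparisons of the crosses. Nor can the wnt8a_1 RNA in libraries labelled as siblings of the wnt8a cross, at 391.7 to 721.5 CPM at 5.5 hpf and 2.33 to 179.7 CPM at 7.5 hpf.

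Ordered by mean, both genes had their highest level in siblings of the dkk1b cross at 7.5 hpf, at 91.5 ± 4.25 CPM for msx1b and 38.0 ± 3.16 CPM for msx1a (SD, n = 3 each). Next came hs:wnt8a/+ embryos at 7.5 hpf, with 86.8 ± 31.2 CPM of msx1b and 34.1 ± 9.80 CPM of msx1a (SD, n = 3 each). The msx1b order went on through hs:wnt8a/+ at 5.5 hpf (76.4 ± 6.97 CPM, SD, n = 2), siblings of the wnt8a cross at 7.5 hpf (75.0 ± 12.6 CPM, SD, n = 3), siblings of the dkk1b cross at 5.5 hpf (54.7 ± 23.8 CPM, SD, n = 3) and siblings of the wnt8a cross at 5.5 hpf (53.6 ± 6.19 CPM, SD, n = 3). Ranges of neighbours in this order overlapped down to this point. Below a gap came hs:dkk1b/+ embryos at 7.5 hpf and, below another, those at 5.5 hpf with 11.2 ± 1.55 CPM (SD, n = 3). For msx1a 1 of the 2 gaps lay elsewhere: hs:wnt8a/+ embryos at 5.5 hpf (22.1 ± 5.25 CPM, SD, n = 2) lay above siblings of the wnt8a cross at 5.5 hpf (15.2 ± 1.36 CPM, SD, n = 3) without overlap, while they overlapped siblings of the wnt8a cross at 7.5 hpf (26.0 ± 2.17 CPM, SD, n = 3), and hs:dkk1b/+ embryos at 5.5 hpf (4.11 ± 0.998 CPM, SD, n = 3) lay below all other groups.

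Per transcript length, msx1b was the more abundant of the pair in nearly every library. In the deposited length-scaled values (TPM), siblings of the dkk1b cross averaged 159 ± 16.4 TPM of msx1b and 81.0 ± 9.47 TPM of msx1a at 7.5 hpf (SD, n = 3 each), and 92.3 ± 41.4 TPM of msx1b and 28.7 ± 15.2 TPM of msx1a at 5.5 hpf (SD, n = 3 each). The ratio of msx1b to msx1a was 1.79, 1.97 and 2.16 at 7.5 hpf, against 3.09, 4.00 and 3.12 at 5.5 hpf. In siblings of the wnt8a cross the ratio was 2.69, 2.14 and 2.22 at 7.5 hpf, against 2.76, 2.90 and 2.97 at 5.5 hpf. The later ratios were thus lower than all earlier ones within each cross. Over the 12 sibling libraries the mean log2 ratio of counts was lower at 7.5 hpf by 0.537 than at 5.5 hpf (difference -0.537, two-sided exact permutation test within crosses, p = 0.005, the smallest that the 400 rearrangements can give). The difference was -0.777 in the dkk1b cross and -0.297 in the wnt8a cross, and over both crosses without the low sibling library of replicate 2 it was -0.477. Sibling libraries of 5.5 hpf, and in the wnt8a cross also those of 7.5 hpf, served the comparisons on which the genes were chosen. No share over other pairs of genes is given, so the p does not set this pair apart from others. The part of the wnt8a_1 RNA in libraries labelled as siblings of the wnt8a cross was not tested. The permutation p does not depend on how libraries are scaled, because the ratio is taken within a library. How the authors' counting dealt with reads that fit both paralogues is not given in the sources used here, and such reads would affect the ratio.

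The ratio was also lower in hs:dkk1b/+ embryos. At 7.5 hpf it was 0.984, 1.63 and 1.31 in hs:dkk1b/+ embryos, against 1.79, 1.97 and 2.16 in siblings, so that in replicate 1 msx1a reached the level of msx1b in TPM. This rests on 1 library, the one with 2654 CPM of hsp70l, and in raw counts its ratio was 1.21. All 3 hs:dkk1b/+ libraries lay below all siblings, with a log2 difference of -0.621 in counts (two-sided exact permutation test, p = 0.1, the smallest that 3 against 3 libraries allow). At 5.5 hpf the ratio was 1.67, 3.45 and 2.00 in hs:dkk1b/+ embryos and 3.09, 4.00 and 3.12 in siblings. The groups overlapped at this time, while at both times the hs:dkk1b/+ library was lower than its same-numbered sibling library in 3 of 3 pairs. The permutation test did not use the pairs. The falls at 7.5 hpf that enter it were known when the genes were chosen, and no share over other pairs of genes is given. In hs:wnt8a/+ embryos the ratio was 2.58 and 3.18 at 5.5 hpf and 2.21, 2.03 and 1.90 at 7.5 hpf, overlapping the siblings at both times.

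**Figure D2:**
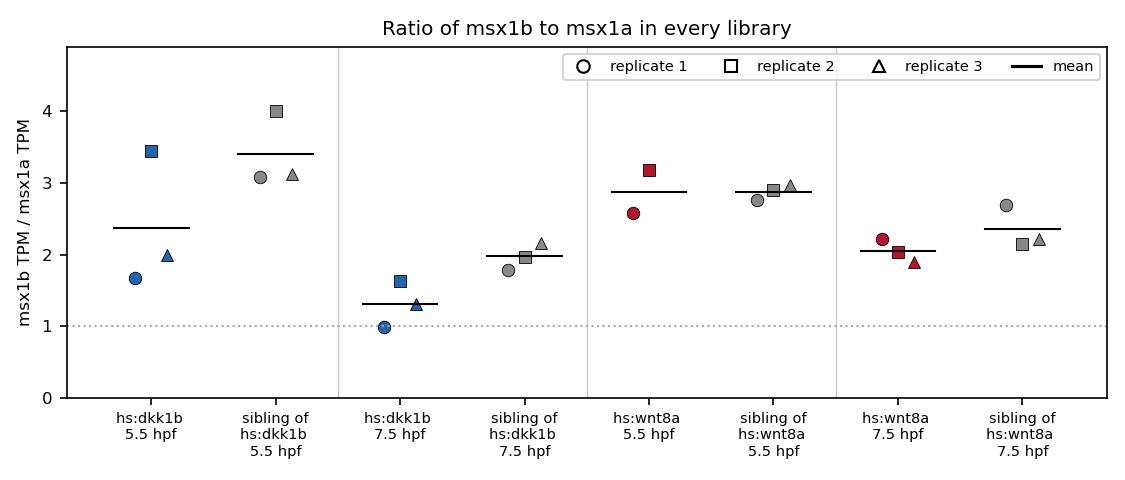
Ratio of msx1b TPM to msx1a TPM in each of the 23 libraries, with the mean of each group as a bar and equal levels as a dotted line. In siblings of both crosses the ratios of 7.5 hpf, 1.79 to 2.69, lie below those of 5.5 hpf, 2.76 to 4.00.

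The other msx genes had smaller early changes with dkk1b, which follows in part from choosing msx1a and msx1b by their early fall. The gene msx3, which in zebrafish marks the dorsal neural tube, was at 5.54, 3.02 and 6.38 CPM in hs:dkk1b/+ embryos at 5.5 hpf, against 11.1, 3.86 and 13.5 CPM in siblings. These groups overlapped only through the low sibling library of replicate 2, and the hs:dkk1b/+ library was lower in each same-numbered pair. The log2 difference of -0.93 ± 0.41 (SE) did not pass (adjusted p = 1). At 5.5 hpf the log2 difference was 0.02 ± 0.42 (SE) for msx2b and -0.48 ± 0.57 (SE) for msx2a, and neither passed. At that time msx2b stayed under 1 CPM in all libraries of both crosses, so a change of it was hard to detect. At 7.5 hpf msx3 was at 5.70, 9.79 and 7.76 CPM in hs:dkk1b/+ embryos and 17.9, 20.2 and 19.8 CPM in siblings. These groups did not overlap, and the log2 fold change of -1.32 ± 0.39 (SE) missed the threshold (adjusted p = 0.700) but passed with the replicate block at -1.34 ± 0.22 (SE, adjusted p = 0.00749). For msx2b the values at 7.5 hpf were 2.69, 5.18 and 2.43 CPM in hs:dkk1b/+ embryos and 4.97, 7.83 and 5.58 CPM in siblings. These overlapped, though the hs:dkk1b/+ library was lower in each same-numbered pair. The log2 difference of -0.83 ± 0.34 (SE) did not pass (adjusted p = 1 without and 0.101 with the block). The gene msx2a stayed under 1 CPM in all libraries, so a change of it was not detectable at this depth. With wnt8a none of msx2a, msx2b and msx3 passed at either time by edgeR, none was at an unadjusted p under 0.05, and DESeq2 called 0.

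With stage msx2b rose the most of the family. It was at 4.97, 7.83 and 5.58 CPM at 7.5 hpf in siblings of the dkk1b cross, against 0.806, 0.458 and 0.792 CPM at 5.5 hpf, which is a log2 difference of 3.15 ± 0.39 (SE) at an adjusted p of 2.31e-05. In siblings of the wnt8a cross msx2b was higher by 3.76 ± 0.45 (SE) at an adjusted p of 1.23e-05. That of msx3 was 1.03 ± 0.39 (SE, adjusted p = 0.0522) in the dkk1b cross and 1.91 ± 0.41 (SE, adjusted p = 0.00135) in the wnt8a cross. In both crosses 3 of the 5 msx genes were called higher with stage, against 15.6% of all genes in the dkk1b cross and 21.8% in the wnt8a cross. The call of msx1b in the dkk1b cross and that of msx1a in the wnt8a cross are among those lost with single libraries left out. DESeq2 called 4 in the dkk1b cross and 3 in the wnt8a cross. Its share over all genes with stage is not given here, so nothing is read from these counts.

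**Figure D3:**
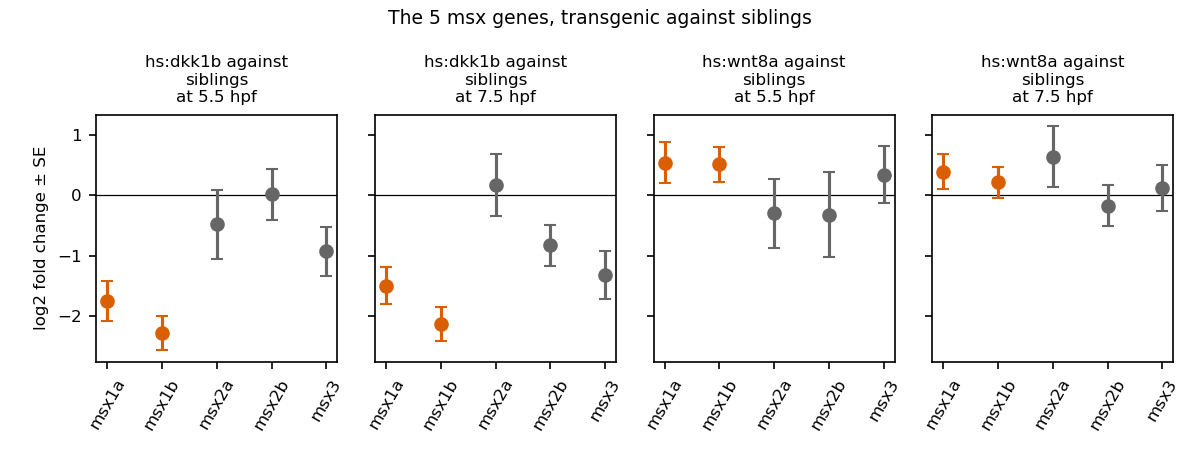
Log2 fold change ± SE of the 5 msx genes in transgenic embryos against siblings in the 4 comparisons, on linear axes with msx1a and msx1b in orange. The pair lies at -1.50 or below in both comparisons with dkk1b and between 0.21 and 0.54 in both with wnt8a.

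Part of the genes known to respond to Wnt signalling were called lower with dkk1b. The list held 16 feedback inhibitors and targets, of which 14 were tested. It was drawn up with earlier results of these data known, so its counts against all genes are a description and no independent support. At 5.5 hpf 4 of the 14 were called lower and 0 higher, against 0.0461% of all genes lower. They were znf703 at -2.13 ± 0.29, sp5a at -2.21 ± 0.36, sp8b at -1.80 ± 0.31 and nkd1 at -1.48 ± 0.19 (log2 fold change ± SE), namely a zinc finger repressor, a pair of Sp factors and an intracellular Wnt inhibitor. With the replicate block, which called 0.231% of all genes lower, 9 were lower, and without the low sibling library 6 were lower. Over single left-out libraries 5 to 25 of all genes were called in either direction. The fit of only the groups compared called 0 of all genes in this comparison. The median over the list was -0.827 log2 units, against 0.00626 over all genes. At 7.5 hpf 9 of the 14 were called lower and 0 higher, against 0.149% of all genes lower, with a median of -1.52 against 0.00691 over all genes. They included axin2, a scaffold of the beta-catenin destruction complex, at -2.43 ± 0.29, lef1, a nuclear partner of beta-catenin, at -1.22 ± 0.15, sp5a at -2.98 ± 0.37 and the Wnt deacylase gene notum1a at -1.98 ± 0.31. Without the replicate 1 pair 4 were lower, and the last section gives the count over all genes. DESeq2 called 8 of the 14 lower with dkk1b at 5.5 hpf and 12 at 7.5 hpf. Over all genes it called 0.144% and 0.303% in either direction. With wnt8a 0 of the 14 passed at 5.5 hpf and at 7.5 hpf by edgeR, with 2 at an unadjusted p under 0.05 at each time. Over all 19504 genes 649 at 5.5 hpf and 309 at 7.5 hpf held such a p. DESeq2 called 0 of the list at 5.5 hpf and 1, nkd1, higher at 7.5 hpf, where it called 0.149% of all genes. The list medians with wnt8a were 0.206 and 0.362. With the block, which called 0.103% of all genes higher, nkd1 at 0.79 ± 0.14 (SE, adjusted p = 0.0246) and lef1 at 0.47 ± 0.08 (SE, adjusted p = 0.0219) were higher in hs:wnt8a/+ embryos at 7.5 hpf, whereas msx1b stood at 0.16 ± 0.23 and msx1a at 0.36 ± 0.18 (SE) in that fit. Only 1 of these 3 hs:wnt8a/+ libraries correlated most with its same-numbered sibling library, so the block is uncertain here.

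**Figure D4:**
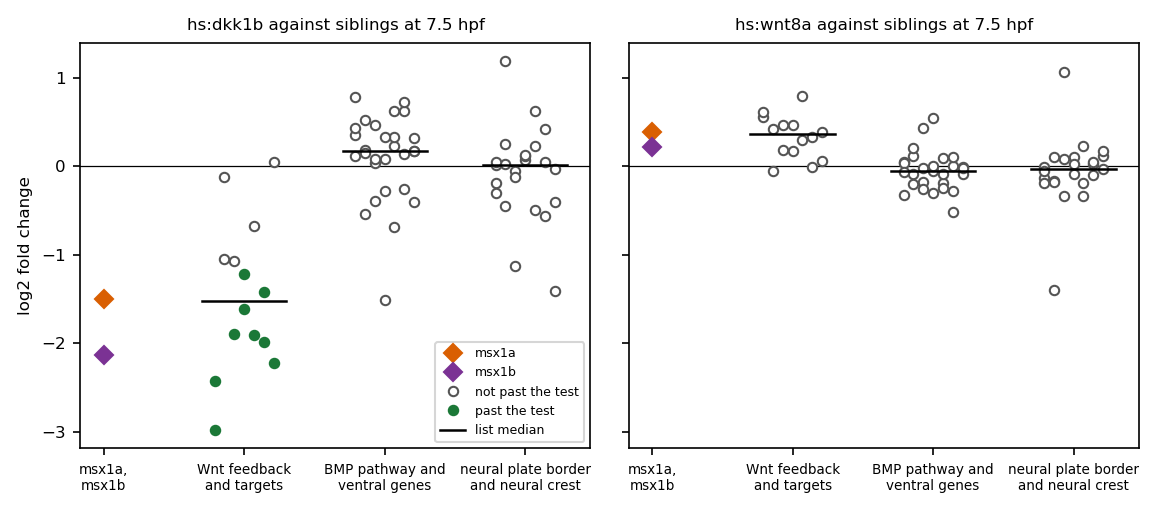
Log2 fold change at 7.5 hpf of msx1a, msx1b and the tested genes of 3 lists, in hs:dkk1b/+ (left) and hs:wnt8a/+ embryos (right) against siblings, on a linear axis. Filled circles passed the edgeR test, open circles did not and bars are list medians. With dkk1b the Wnt list has a median of -1.52 and the other 2 lists have medians of 0.172 and 0.0171.

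BMP signalling is the other known input to msx genes, and the list of its genes held members on both sides of 0 with dkk1b. It held ligands, receptors, Smads, antagonists and ventral factors, and 28 of the 29 were tested. None passed by edgeR in hs:dkk1b/+ embryos at either time, with 5 of the 28 at 5.5 hpf and 8 at 7.5 hpf at an unadjusted p under 0.05, against 277 and 520 of all 19504 genes. DESeq2 called 0 of the list, against 0.144% and 0.303% of all genes at the 2 times. The list medians were 0.134 and 0.172, against 0.00626 and 0.00691 over all genes. The smallest p at 7.5 hpf belonged to ved, a ventral homeobox repressor, at -0.68 ± 0.19 (SE, adjusted p = 0.573) and eve1, a posterior and ventral homeobox gene, at -1.51 ± 0.43 (SE, adjusted p = 0.573). With the replicate block 3 genes passed as lower at 7.5 hpf, against 0.59% of all genes, eve1 at -1.48 ± 0.15 (SE), ved at -0.68 ± 0.10 (SE) and cdx1a at -0.54 ± 0.10 (SE). In the same fit 4 passed as higher, against 0.159% of all genes: the ligand gene bmp7a at 0.62 ± 0.10 (SE), the ectodermal factor gata2a at 0.72 ± 0.13 (SE), and id3 and smad6b, which are induced by BMP, at 0.48 ± 0.10 (SE) and 0.78 ± 0.17 (SE). At 5.5 hpf the block called eve1 and cdx1a lower, against 0.231% of all genes. In hs:wnt8a/+ embryos 0 of the 28 passed at either time by edgeR, and DESeq2 called 0. An unadjusted p under 0.05 was held by 0 at 5.5 hpf and 2 at 7.5 hpf. Over all 19504 genes it was held by 649 and 309. The list medians were 0.00283 and -0.0592. With the replicate block, which called 0.103% of all genes higher at 7.5 hpf, 1 of the 28 passed as higher at that time. This was the BMP antagonist gene nog1, and the block is uncertain in this comparison.

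Genes of the neural plate border and neural crest, the territory in which msx genes act, had medians near that of all genes. Of 24 listed, 23 were tested and 0 passed by edgeR in any of the 4 comparisons of transgenic embryos with siblings. An unadjusted p under 0.05 was held by 1 at 5.5 hpf and 4 at 7.5 hpf with dkk1b. Over all 19504 genes it was held by 277 and 520. With wnt8a it was held by 2 at each time, against 649 and 309 of all 19504 genes. DESeq2 called 0 of the list throughout. The list medians were 0.0105 and 0.0171 with dkk1b and -0.0573 and -0.0293 with wnt8a. With the replicate block only pax3a, a paired homeobox gene of the border, passed. The block called 0.231% of all genes lower with dkk1b at 5.5 hpf and 0.59% at 7.5 hpf. With wnt8a at 7.5 hpf it called 0.103% higher. At 5.5 hpf pax3a was lower in hs:dkk1b/+ embryos by a log2 difference of -1.60 ± 0.22 (SE) at an adjusted p of 0.00341. Later, at 7.5 hpf, it was lower by -1.13 ± 0.14 (SE) in hs:dkk1b/+ embryos at an adjusted p of 0.000931 and higher by 1.06 ± 0.13 (SE) in hs:wnt8a/+ embryos at an adjusted p of 0.000882. For the wnt8a value the block is uncertain, since only 1 of 3 hs:wnt8a/+ libraries correlated most with its same-numbered sibling library. With stage, 12 of the 23 were higher and 4 lower in siblings of the dkk1b cross, against 15.6% and 15.4% of all genes, and 14 higher and 4 lower in those of the wnt8a cross, against 21.8% and 18.4%. Without the low sibling library the count in the dkk1b cross was 5 higher and 4 lower. Over single left-out libraries 3630 to 5700 of all genes were called there in either direction. Like msx1a, pax3a rose with stage in both crosses, by 2.24 ± 0.47 (SE, adjusted p = 0.00162) and 4.29 ± 0.55 (SE, adjusted p = 2.1e-05).

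The genes whose pattern over the 23 libraries lay closest to the pair were compared by the root-mean-square (RMS) difference of log2 CPM after each gene was centred on its own mean. Among 10274 genes with a mean log2 CPM of at least 1 and a plain gene name, the 5 closest to msx1b were sp8b (0.268), znf703 (0.394), znf503 (0.457), msx1a (0.460) and gbx1 (0.522), against a median of 1.13. All 5 are transcription factor genes, and all had lower levels in hs:dkk1b/+ embryos at 5.5 hpf, with log2 fold changes of -1.80 ± 0.31 for sp8b, -2.13 ± 0.29 for znf703, -1.55 ± 0.25 for znf503 and -2.01 ± 0.34 for gbx1 (SE). These libraries were among those searched, so a fall shared with msx1b follows from how the genes were picked. The 5 closest to msx1a were msx1b (0.460), the caudal homeobox gene cdx4 (0.467), the Wnt receptor gene fzd10 (0.508), nradd (0.524) and the Sp factor gene sp9 (0.545), against a median of 1.09. In siblings of the dkk1b cross cdx4, fzd10 and sp9 had higher levels with stage, by log2 differences of 0.73 ± 0.22, 1.31 ± 0.21 and 2.04 ± 0.32 (SE). Their likeness to msx1a here also follows in part from the search. Likeness rested in large part on which libraries were used. Within the transgenic libraries 4 of the 5 genes closest to msx1b stayed among the closest 5 and 0 of those closest to msx1a, and within the sibling libraries 0 of either. The cut at 5 is narrow among 10274 genes. Those closest to msx1a ranked 6 to 49 in transgenic and 19 to 309 in sibling libraries. Those closest to msx1b ranged in siblings from 10 for sp8b to 4242 for gbx1.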

How the data were processed

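Gene tables of 23 libraries held raw counts, TPM and RPKM for 31743 genes. Per the submitters' processing notes GRCz11 and edgeR were used. No aligner, counting rule or strand setting is named in the sources used here. The counts were deposited by the authors without normalization, and the authors' deposited TPM and RPKM divide them by gene length and depth. The TPM served for the ratio of the paralogues, and RPKM was not used. Of the gene IDs, 28988 matched a reference table of names.

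Counts were tested with edgeR 4.0.16 in R 4.3.3 by the quasi-likelihood F test. A single fit held all 23 libraries and 8 groups, with TMM scaling and the default filterByExpr filter, which left 19504 genes. Benjamini-Hochberg adjusted p-values had a threshold of 0.05. The SE was taken from F, as the absolute log2 fold change over its square root. CPM are TMM-scaled. The script was tested on simulated counts. The ratio of counts, with 0.5 added to each, was tested by exact permutation. Alternatives were RLE scaling, no filter, DESeq2 1.42.0, fits of only the groups compared, a replicate block, and leaving out each library. No 2 replicates were near-identical: over 22 pairs, chi-square of their counts over its degrees of freedom was 2.88 to 48.3, above sampling noise. Where 3 or more pairs each had a correlation over 0.1 of their deviations from the group means across genes, the replicate numbers were taken to pair the libraries. This held for dkk1b at 5.5 hpf (0.476 to 0.707) and 7.5 hpf (0.465 to 0.606), for wnt8a at 7.5 hpf (0.307 to 0.726) and for siblings of the dkk1b cross between times (0.167 to 0.311). For wnt8a at 7.5 hpf, however, only 1 of 3 libraries correlated most with its same-numbered library, against 3 of 3 in each comparison of the dkk1b cross named here. The pairing by number is therefore uncertain for wnt8a at 7.5 hpf.

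The genes and all lists were chosen with earlier results of these data known. Named genes were the 5 msx genes, the transgenes, list members past the threshold or with the smallest p, and the 5 nearest genes of each. Ranked genes had a mean log2 CPM of at least 1 (prior count 2), and the search for nearest genes also left out names with capitals, colons or other marks, such as clone names. The genes called with the block and hsp70l were named after their values were seen. No gene sequence or coordinate was used here.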

Additional observations from a re-analysis of the deposited data

How the results depend on the processing

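The msx1b fall with dkk1b at 7.5 hpf and the msx1a rise with stage in siblings of the dkk1b cross kept direction and call under RLE scaling, no filter, DESeq2, fits of only the groups compared, the replicate block and each left-out library. The msx1a fall at 7.5 hpf passed at -1.50 with RLE scaling (adjusted p = 0.0488), without a filter (adjusted p = 0.039) and with DESeq2 (adjusted p = 0.000732), and at -1.51 with only the groups compared (adjusted p = 0.0119) and with the block. It did not pass with any library left out (-1.67 to -1.38, adjusted p of 0.137 to 0.392). The msx1a stage change in siblings of the wnt8a cross missed at 0.747 with RLE scaling (adjusted p = 0.053), at 0.786 without a filter (adjusted p = 0.0507) and at 0.715 to 0.839 with a library left out. That of msx1b passed there at 0.486 with only the groups compared (adjusted p = 0.0394), and in the dkk1b cross missed at 0.747 (adjusted p = 0.0972), with 0.423 to 1.00 over left-out libraries.

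Counts of called genes moved more. With dkk1b at 5.5 hpf the count was 10, 27 with DESeq2, 0 with only the groups compared, 48 with the block and 5 to 25 over left-out libraries. At 7.5 hpf it was 30, 59 with DESeq2, 146 with the block, 10 without both replicate 1 libraries and 15 to 23 over left-out libraries. With wnt8a at 5.5 hpf it was 0, 5 with DESeq2 and 113 with the block, where the replicate numbers did not pair the libraries. At 7.5 hpf it was 19, 29 with DESeq2, 9 with only the groups compared, 75 with the block and 11 to 17 over left-out libraries. Stage calls in the dkk1b cross were 6050, or 3630 to 5700. Between siblings at 5.5 hpf the count was 1508, 466 with only the groups compared, 694 with the block and 353 to 2130 over left-out libraries. At 7.5 hpf it was 345, 205 without a filter, 913 with DESeq2, 23 with only the groups compared, 28 with the block and 55 to 495 over left-out libraries.

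The wnt8a value of msx1a at 5.5 hpf was 0.267 to 0.757 over left-out libraries. Differences near 0 changed sign. Between siblings at 5.5 hpf msx1b was at 0.0688 with the block and -0.349 to 0.227 over left-out libraries, and msx1a at -0.241 to 0.439. The stage difference between crosses of msx1b was -0.516 to 0.0597, and the difference between times of the dkk1b effect was -0.102 to 0.474 for msx1b and -0.0541 to 0.627 for msx1a. With wnt8a at 7.5 hpf msx1b was at -0.078 to 0.446. The cause was not tested. Same-numbered libraries did not deviate together for wnt8a at 5.5 hpf (-0.0865 to -0.0676), for siblings of the wnt8a cross between times (-0.300 to 0.175) or between the crosses (-0.219 to -0.0976 at 5.5 hpf, -0.138 to -0.00482 at 7.5 hpf), so the block there shares only a number. Of the 4 paired comparisons, msx1a and msx1b were tested with dkk1b at 7.5 hpf and in siblings of the dkk1b cross between times. There the block changed no call of msx1a or msx1b other than that of msx1a at 7.5 hpf. With 2 or 3 libraries a group, the precision of the wnt8a values is limited.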
